A study of Mus musculus with 4 samples.

Results

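The epidermal growth factor (EGF) family ligands and the ERBB receptors were taken as all probe sets that the platform's annotation pairs with Areg, Ereg, Hbegf, Tgfa, Btc, Egf, Egfr, Erbb2 or Erbb3. A probe set of its own was found for 8 of these 9 genes, out of 19938 genes tested in all, and Areg was not analysed here. Of the 8 genes, all lay at or above the 25th percentile of mean intensity and 6 at or above the median, with Btc and Egf below it. The irradiated group was 2 samples of Dalton's lymphoma ascites (DLA) cells, a mouse tumour grown in the peritoneal fluid, from male Swiss albino mice of 4 to 5 months whose whole body received 2 Gy of electrons on day 8 after transplantation. The control group was 2 samples of the same tumour from mice left unirradiated, and both groups were harvested 48 h after the time of exposure. The sources used here do not say how many mice gave each sample, so the p-values measure the spread between samples that the labels call biological replicates. Values are log2 intensities from one-colour arrays, so a difference of 1 is a doubling of signal.

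EGF family ligands are made as membrane proteins and are released from the cell surface by metalloproteases of the ADAM family. A released ligand binds an ERBB receptor, receptors pair up and phosphorylate each other, and the signal runs through RAS to the kinase ERK and through PI3K to AKT. EGFR binds EGF, TGF-alpha, amphiregulin, epiregulin, betacellulin and heparin-binding EGF, whereas ERBB2 has no known ligand of its own and ERBB3 has little kinase activity and depends on its partner. The pathway is known for epithelial tissue rather than for lymphocytes, and ligand genes such as Ereg and Hbegf are themselves induced by ERK.

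The labelled cell type was set against marker genes, of which Ptprc and Krt8 were picked after their values were seen. All 16 measured B and T lymphocyte markers lay below the median of tested genes, and Ptprc, the pan-leukocyte antigen CD45, measured 5.57 and 5.49 in irradiated arrays and 5.63 and 5.64 in control arrays. Simple epithelial markers stood at or above that median for 10 of 14, and Krt8, a keratin of simple epithelium, measured 13.93 and 13.30 in irradiated arrays and 14.07 and 14.11 in control arrays. The arrays' medians lay between 6.43 and 6.46. The SD over genes of the difference between replicates was 0.362 for the irradiated and 0.167 for the control arrays. In bulk samples such as these, fewer cells of a type and less RNA per cell cannot be told apart.

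None of the 8 genes differed between irradiated and control cells past a threshold. In limma, with adjustment over all genes, the smallest adjusted p among them was 0.544, beside a background of 0.00502% of all genes past the adjusted threshold. At an unadjusted p under 0.05, 0 of 8 passed, against 10.3% of all genes, and 0 of 8 with at least 1.5-fold in addition, against 2.37%. The 8 differences ran from −0.25 for Erbb3 to 0.165 for Egfr with a median of −0.0525, beside a median of −0.03 over all genes tested. Of the 8, 3 were higher and 5 lower in irradiated cells. The groups did not overlap for 1 of 8 genes, Erbb3, which was lower in irradiated arrays, against 41.7% of all genes (17.8% higher and 23.9% lower). On the fold scale the limma 95% intervals reached down to 0.645 for Erbb2 and up to 1.78 for Ereg, so a change of 2-fold in either direction lay outside the interval of each gene. These intervals assume equal spread in both groups, and the irradiated arrays spread more.

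**Figure D1:**
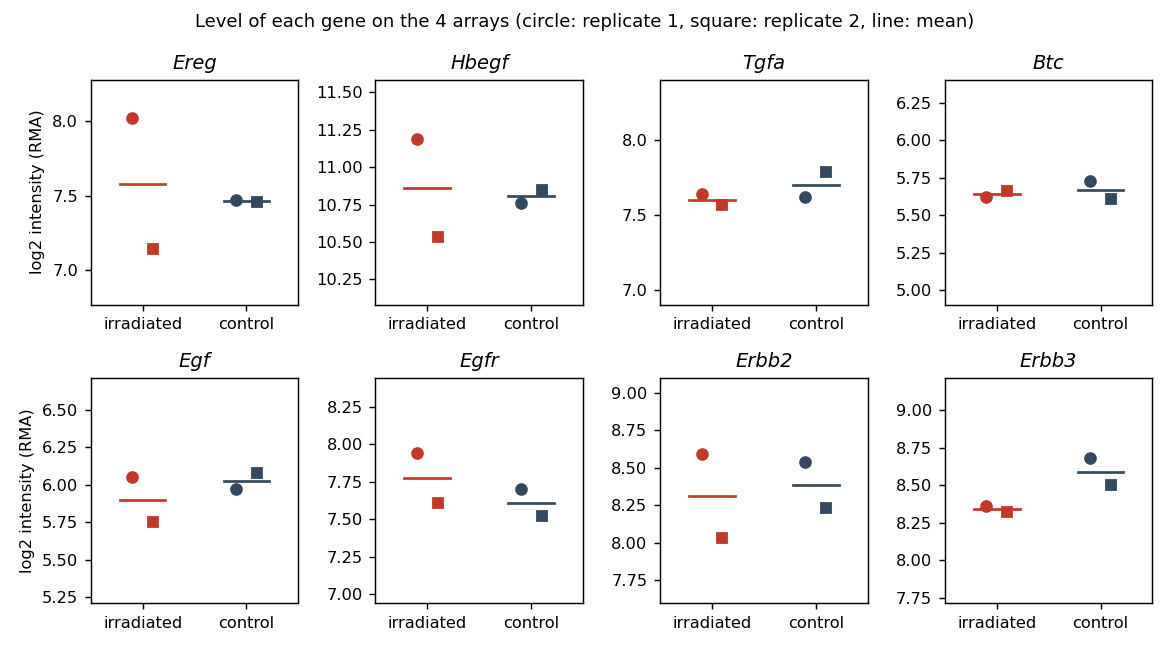
Log2 intensity (RMA) of the 8 measured genes on each array, irradiated in red on the left of each panel and control in dark blue on the right, with replicate 1 as a circle, replicate 2 as a square and the group mean as a line. Each panel spans the same range of log2 units. Ereg and Hbegf have their irradiated replicates on either side of both controls, at 8.02 and 7.14 for Ereg, and Erbb3 has both irradiated values below both controls.

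Among the ligands, Ereg had the widest spread. Ereg encodes epiregulin, a ligand of EGFR and ERBB4. It measured 8.02 and 7.14 in irradiated arrays, against 7.47 and 7.46 in control arrays. One irradiated replicate was above both controls and the other below both, while the controls were almost equal. The mean difference was 0.115 ± 0.29 (standard error; limma adjusted p = 0.911). Left to 1 irradiated array, the difference was 0.555 without irradiated replicate 2 (limma adjusted p = 0.308) and −0.325 without irradiated replicate 1 (limma adjusted p = 0.132). Such fits of 3 arrays assume that the lone array varies like the other group. Ereg's irradiated replicates lay 0.88 apart, a gap matched or exceeded by 1.91% of all genes.

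Hbegf, the heparin-binding ligand of EGFR and ERBB4, showed the same arrangement. It measured 11.19 and 10.53 in irradiated arrays, against 10.76 and 10.85 in control arrays. Again the controls lay between the irradiated replicates. The mean difference was 0.055 ± 0.23 (standard error; limma adjusted p = 0.952), changing to 0.385 without irradiated replicate 2 and −0.275 without irradiated replicate 1. A gap of 0.66 or more between irradiated replicates was found for 5.47% of all genes.

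The irradiated replicates of the other 3 ligands lay closer together. Tgfa, which encodes transforming growth factor alpha, measured 7.64 and 7.57 in irradiated arrays, against 7.62 and 7.79 in control arrays. Btc, which encodes betacellulin, measured 5.62 and 5.66 in irradiated arrays and 5.73 and 5.61 in control arrays. For both genes the groups overlapped, and the irradiated replicates lay within 0.07 of each other. Egf, the founding member of the family, measured 6.05 and 5.75 in irradiated arrays and 5.97 and 6.08 in control arrays, so that irradiated replicate 2 alone lay below the controls. The differences were −0.10, −0.03 and −0.125 for Tgfa, Btc and Egf, with limma adjusted p-values of 0.80, 0.945 and 0.786. The sign of the Btc difference turned under quantile normalization (0.0013) and cyclic loess (0.012).

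Among the receptors, Erbb3 had the smallest p. It measured 8.36 and 8.32 in irradiated arrays, against 8.68 and 8.50 in control arrays. Both irradiated arrays lay below both controls, and the means were 8.34 ± 0.03 in irradiated and 8.59 ± 0.13 in control cells (SD, n = 2 each). The difference was −0.25 ± 0.12 (standard error), with an interval from −0.56 to 0.058 (limma unadjusted p = 0.0928, adjusted p = 0.544). It stayed negative without each array in turn, from −0.34 to −0.16.

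Egfr, the receptor of all 6 ligands named here, measured 7.94 and 7.61 in irradiated arrays, against 7.70 and 7.52 in control arrays. Irradiated replicate 1 was above both controls and replicate 2 between them. The difference was 0.165 ± 0.16 (standard error; limma adjusted p = 0.736), changing to 0.33 without irradiated replicate 2 and 0 without irradiated replicate 1. Erbb2, the shared partner receptor, measured 8.59 and 8.03 in irradiated arrays, against 8.54 and 8.23 in control arrays. Its control replicates also lay apart, by 0.31, and its irradiated replicates by 0.56. The difference was −0.075 ± 0.22 (standard error; limma adjusted p = 0.927), changing to 0.205 without irradiated replicate 2 and −0.355 without irradiated replicate 1. A further probe set listed with both Erbb2 and Sympk measured 5.01 on both irradiated arrays and 4.82 and 5.19 on the control arrays. It was not assigned to either gene.

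**Figure D2:**
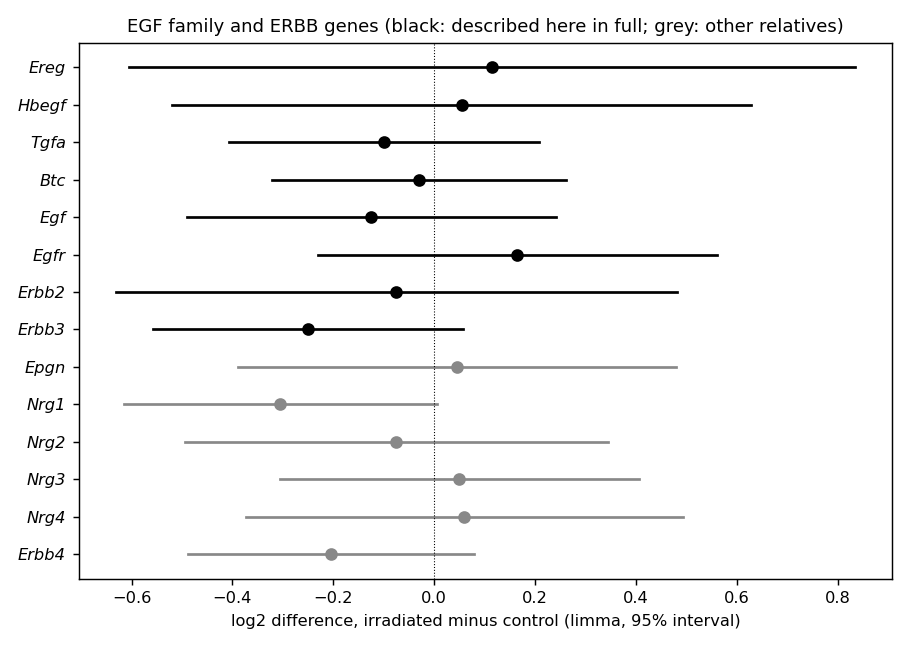
Log2 difference, irradiated minus control, with the limma 95% interval for the 8 genes described here (black) and 6 further family genes (grey). Every interval includes 0, and those of Ereg, Hbegf and Erbb2 are the widest of the black set.

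The irradiated replicates differed from each other in 1 direction for most of these genes. Irradiated replicate 1 was above replicate 2 for 7 of 8, all but Btc, with a median gap of 0.315, against 53.3% of all genes and a median gap of 0.03. Relative to the control mean, the median over the 8 genes was 0.115 in irradiated replicate 1 and −0.2725 in replicate 2. In the control arrays replicate 1 was above replicate 2 for 5 of 8, with a median gap of 0.065. Some cell type lists shared the direction and others did not. Replicate 1 was the higher irradiated array for 15 of 16 lymphocyte, 8 of 9 mesothelial, 10 of 14 simple epithelial and 5 of 7 fibroblast markers. It was the higher for 8 of 13 trophoblast, 3 of 5 erythroid, 8 of 14 neutrophil, 8 of 15 macrophage and 6 of 12 mast cell, basophil and eosinophil markers. The part of these differences between arrays in the ERBB values was not tested.

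**Figure D3:**
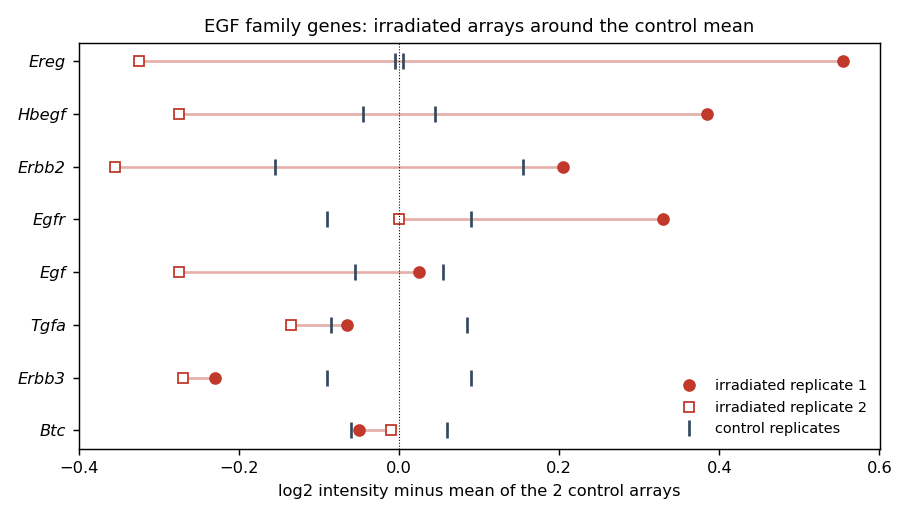
Log2 intensity of each gene in irradiated replicate 1 (filled circle) and replicate 2 (open square) minus the mean of its 2 control arrays, with the control replicates as blue ticks. Genes are ordered by the gap, from 0.88 for Ereg at the top to −0.04 for Btc at the bottom.

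Promoter windows are shown for Egfr and Erbb2, receptor genes whose irradiated replicates lay apart in the same direction (gaps of 0.33 and 0.56), and for Btc, whose gap was −0.04. Each is the 250 bases before the gene's start, read along the gene, from RefSeq in build GRCm38.p6. Egfr and Erbb2 lie on the plus strand and Btc on the minus strand. Windows were searched for 5 of the 8 measured genes, these 3 with Tgfa and Egf. Those of Ereg, Hbegf and Erbb3 were not searched. Capitals mark the GC box, GGGCGG on either strand, which binds the transcription factor SP1.
Egfr, chr11:16751953-16752202: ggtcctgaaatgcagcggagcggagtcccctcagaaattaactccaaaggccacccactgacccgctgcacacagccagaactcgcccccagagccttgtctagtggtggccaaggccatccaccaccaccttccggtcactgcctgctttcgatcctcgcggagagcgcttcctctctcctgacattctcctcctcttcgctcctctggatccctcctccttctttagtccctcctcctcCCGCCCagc
Erbb2, chr11:98412234-98412483: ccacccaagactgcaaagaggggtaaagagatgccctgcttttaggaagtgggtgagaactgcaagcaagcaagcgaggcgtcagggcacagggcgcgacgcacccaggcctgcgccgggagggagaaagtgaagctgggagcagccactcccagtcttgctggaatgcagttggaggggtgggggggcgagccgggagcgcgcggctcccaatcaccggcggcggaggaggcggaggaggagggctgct
Btc, chr5:91402995-91403244: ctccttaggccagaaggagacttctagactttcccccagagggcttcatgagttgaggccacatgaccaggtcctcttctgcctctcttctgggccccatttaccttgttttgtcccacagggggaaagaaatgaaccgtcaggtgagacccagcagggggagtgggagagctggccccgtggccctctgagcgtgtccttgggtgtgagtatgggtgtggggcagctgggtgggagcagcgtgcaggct

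The Egfr window held 1 GC box and the Erbb2 and Btc windows 0, and 32.7% of all 32851 promoter windows of this length held at least 1. None of the 3 held TATAAA, the TATA box (12.4% of all windows), TGANTCA, the site of AP-1 factors (6.75%), or TGACGTCA, the cAMP response element (1.55%), each searched on both strands. The G and C content was 60.8% for Egfr, 66% for Erbb2 and 59.6% for Btc. Of the windows not shown, that of Tgfa, with a replicate gap of 0.07, held 2 GC boxes, and those of Egf, with a gap of 0.30, held 0. A match or its lack describes these letters in these windows and not a factor's binding.

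None of the other genes of the family passed a threshold, although 1 passed the unadjusted one with dim genes left out or with eBayes with trend. Of 6 genes, 3 were higher and 3 lower, the median difference was −0.015, and 0 passed an unadjusted p of 0.05 in limma. Nrg1, which encodes neuregulin 1, a ligand of ERBB3 and ERBB4, measured 7.70 and 7.56 in irradiated arrays and 7.87 and 8.00 in control arrays. Both irradiated arrays lay below both controls, by 0.305 on average (limma unadjusted p = 0.0528, adjusted p = 0.491). Erbb4, the fourth receptor of the family, measured 5.43 and 5.45 in irradiated arrays and 5.60 and 5.69 in control arrays, which also did not overlap. Its difference was −0.205 (limma adjusted p = 0.58). Those of Nrg2 and Nrg3, further neuregulins, were −0.075 and 0.05. The groups did not overlap for 2 of the 6 genes, both lower, against 23.9% of all genes lower.

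Genes that act around the receptors were counted in lists, and no gene of the 7 lists passed the adjusted threshold in limma. The counts that follow are therefore of an unadjusted p under 0.05, which 5.21% of all genes passed as higher and 5.1% as lower in irradiated cells.

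Of 16 measured genes of ligand shedding, 5 were higher and 1 lower past the unadjusted threshold, and 10 missed it, with a median difference of 0.1725. Besides proteases, the list holds Timp1 and Timp3, which encode protease inhibitors. Adam19, a protease that can cleave neuregulin, measured 8.23 and 8.54 in irradiated arrays and 7.69 and 7.63 in control arrays. Its difference was 0.725 (limma adjusted p = 0.318), and both irradiated arrays lay above both controls. Adam9 and Adam10, further membrane proteases, were higher by 0.395 and 0.345, and Cd9, a tetraspanin that associates with the membrane form of heparin-binding EGF, by 0.365. Adam17, the main shedding enzyme of several EGFR ligands, was added after its values were seen. It measured 10.15 and 10.10 in irradiated arrays against 9.82 on each control array, a difference of 0.305 (limma unadjusted p = 0.0363, adjusted p = 0.46). The 1 lower gene was Adam12, also added after its values were seen, with a difference of −0.395 (limma unadjusted p = 0.0429, adjusted p = 0.475). The count of genes past the unadjusted threshold was 8 without irradiated replicate 2, 6 without irradiated replicate 1 and 1 without either control, and the median was 0.0675 without irradiated replicate 1.

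In the signalling cascades the shares of genes past the unadjusted threshold were near the 10.3% of all genes. Of 14 measured genes from RAS to ERK, 1 passed the unadjusted threshold, the kinase gene Map2k2, higher by 0.37 (limma adjusted p = 0.442), and the list median was 0.035. Ksr1, a scaffold of the cascade, and Braf and Sos2, a kinase and an activator of RAS, differed by 0.22, −0.23 and −0.195. A further 6 of the 20 genes in this list were not analysed here. Of 15 genes of the PI3K, phospholipase C and STAT branch, 2 passed as higher, with a median of 0.075. The groups did not overlap for 10, with 7 higher and 3 lower, against 17.8% higher and 23.9% lower over all genes. The 2 genes that passed were the kinase gene Akt1 (0.365) and Pik3r1, the regulatory subunit of PI3K (0.485). Their limma adjusted p-values were 0.442 and 0.443. Stat5a and Pdpk1 differed by −0.325 and 0.25. Without irradiated replicate 1, the median was −0.0275 for the genes from RAS to ERK and 0.01 for the PI3K, phospholipase C and STAT branch.

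Inhibitors and turnover genes of the receptors did not move in 1 direction. Of 20 genes, 3 were higher and 1 lower past the unadjusted threshold and 16 missed it, with a list median of −0.045. Ubash3b, a phosphatase that counters receptor degradation, was higher by 0.445, Socs5, which promotes EGFR degradation, by 0.38, and Stam, of the endosomal sorting machinery, by 0.37. Cblc, a ubiquitin ligase of the CBL family, was lower by 0.395. Their limma adjusted p-values lay between 0.38 and 0.471. Errfi1, an ERK-induced inhibitor that binds the EGFR kinase domain, was added after its values were seen. It measured 12.98 and 12.50 in irradiated arrays and 12.81 and 12.91 in control arrays, the arrangement found for Ereg and Hbegf. The count was 10 without irradiated replicate 1, 5 without irradiated replicate 2 and 0 without either control.

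Feedback genes of the ERK pathway had a median difference of 0.275. Of 13 genes, 6 were higher and 2 lower past the unadjusted threshold and 5 did not pass. Spry4, a Sprouty inhibitor of receptor signalling, measured 9.35 and 9.21 in irradiated arrays and 8.80 and 8.64 in control arrays. Nf1 and Rasa1, which switch RAS off, were higher by 0.525 and 0.455, and the phosphatase gene Dusp7 was lower by 0.50. The limma adjusted p-values of these 4 genes, chosen by smallest p, lay between 0.358 and 0.431. Over the list the groups did not overlap for 8 of 13, with 6 higher and 2 lower, against 17.8% higher and 23.9% lower over all genes. The median was 0.255 in irradiated replicate 1 and 0.245 in replicate 2. Replicate 1 was the higher irradiated array for 8 of 13, with a median gap of 0.10, against 53.3% and 0.03 over all genes. Without each array in turn, the list median ran from 0.19 to 0.345.

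**Figure D4:**
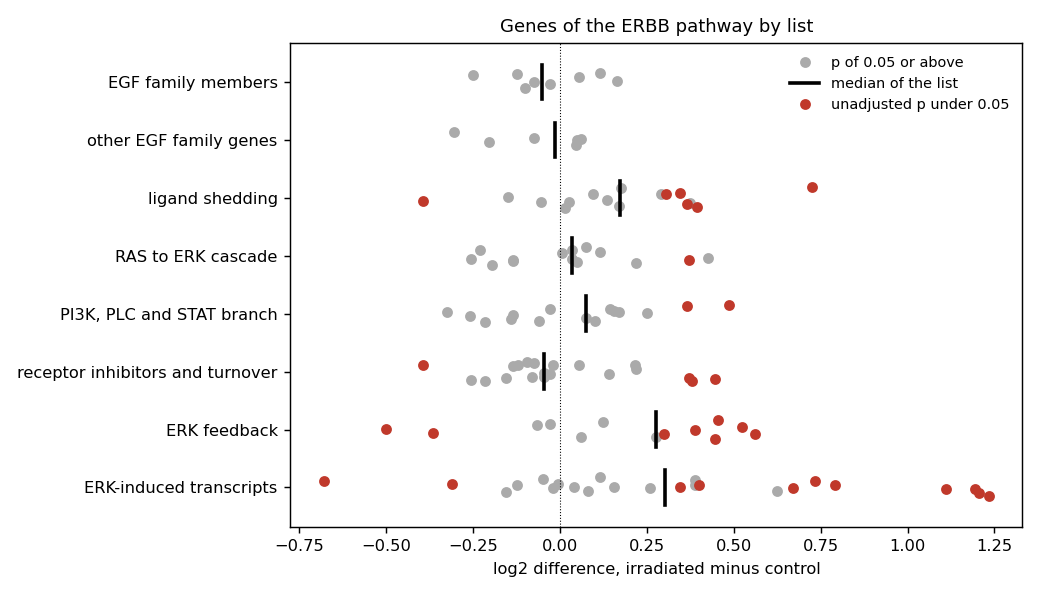
Log2 difference, irradiated minus control, of each measured gene in the ERBB lists, in red where the unadjusted limma p was under 0.05 and grey otherwise, with the list median as a black bar; points are scattered vertically for legibility. No point of the EGF family members or their 6 relatives is red, and the medians of the ERK feedback and ERK-induced lists are 0.275 and 0.3025.

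Transcripts known to be induced by ERK had a median difference of 0.3025. Of 24 genes, 9 were higher and 2 lower past the unadjusted threshold and 13 did not pass. At 1.5-fold or more in addition, 7 were higher and 1 lower, where the background was 1.7% higher and 0.672% lower. Lif, which encodes leukaemia inhibitory factor, measured 10.32 and 9.54 in irradiated arrays and 8.83 and 8.56 in control arrays, a 2.35-fold difference (limma adjusted p = 0.347). Ier3, Jun and Fosl2 were higher by 1.205, 1.11 and 0.67, with limma adjusted p-values of 0.193, 0.259 and 0.295. These 4 genes were chosen by smallest p. Among genes picked after their values were seen, Myc was lower by 0.68. Egr1, Etv4 and Ccnd1, picked in the same way, differed by 0.04, −0.125 and −0.155. Over the list both irradiated arrays lay above both controls for 11 genes and below for 2, with 11 overlapping, against 17.8% higher and 23.9% lower over all genes. Leaving out irradiated replicate 2 gave a list median of 0.47, and leaving out irradiated replicate 1 gave −0.0175.

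A second set of these transcripts resembled Ereg and Hbegf in being high in irradiated replicate 1 alone, and it was picked after the values were seen. Fosb, a subunit of AP-1, measured 10.33 and 9.0 in irradiated arrays and 9.07 and 9.01 in control arrays. Egr2, an early response transcription factor, measured 8.73 and 7.91 in irradiated arrays and 7.94 and 7.92 in control arrays. Plaur, the urokinase receptor, measured 11.70 and 10.89 in irradiated arrays and 10.88 and 10.93 in control arrays. In each, irradiated replicate 2 lay between the controls or 0.01 below the nearer one. Phlda1, an early gene of growth factor signalling, measured 12.46 and 11.64 in irradiated arrays and 11.99 and 12.15 in control arrays, above and below both controls as Ereg was. Across the list, irradiated replicate 1 was the higher for 22 of 24 genes, with a median gap of 0.40, against 53.3% and 0.03 over all genes. The arrangement of Ereg was also found outside these lists. Cdx2, a trophoblast marker picked after its values were seen, measured 8.32 and 7.28 in irradiated arrays and 7.73 and 7.74 in control arrays.

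**Figure D5:**
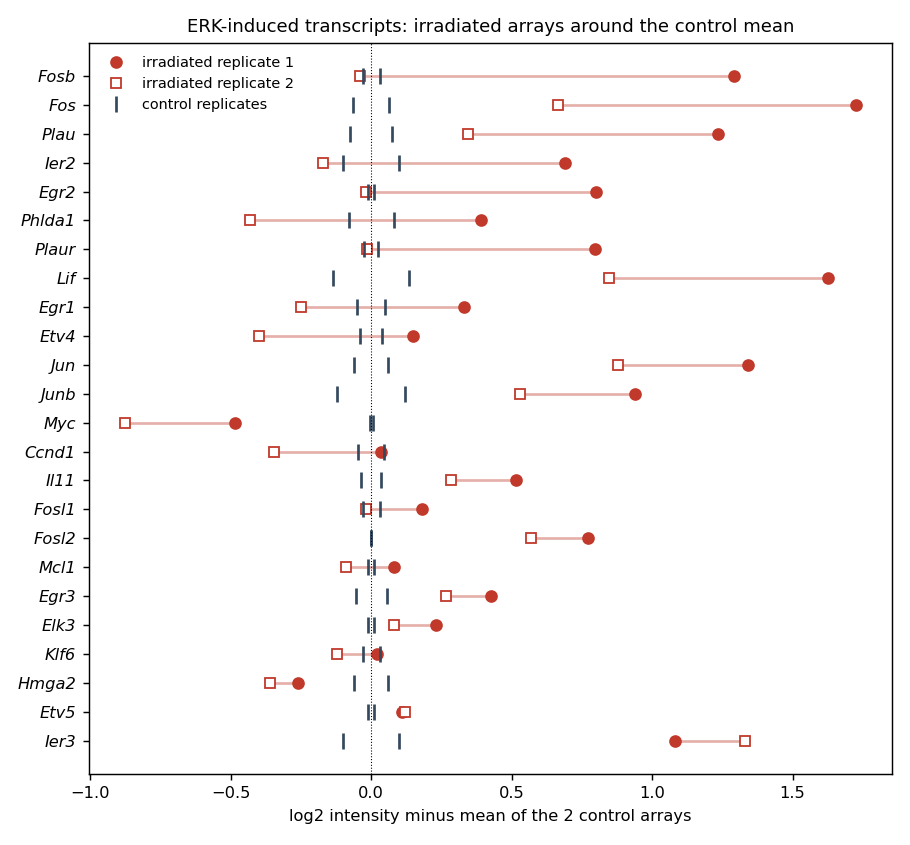
Log2 intensity of the 24 ERK-induced transcripts in irradiated replicate 1 (filled circle) and replicate 2 (open square) minus the mean of their 2 control arrays, ordered by the gap, with the control replicates as blue ticks. Jun, Lif and Ier3 have both irradiated arrays right of the controls, while Fosb, Egr2 and Plaur have replicate 1 alone to the right.

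Markers of other cells also differed on these arrays. Past the unadjusted threshold in limma, 2 of 14 neutrophil markers were higher and 7 lower, beside 5.21% higher and 5.1% lower over all genes. The summed log2 level of the neutrophil list was 91.46 and 95.03 in irradiated arrays against 96.86 and 98.35 in control arrays. Single genes weigh on such sums. Lcn2, picked after its values were seen, measured 5.80 and 10.27 in irradiated arrays and 8.04 and 8.21 in control arrays. Ly6g, at 12.04 and 11.89 in irradiated arrays against 8.87 and 8.82 in control arrays, was the 1 gene of all past the adjusted threshold (limma adjusted p = 0.0117), a call lost without any 1 array, with the replicate block and over every row of the table. Retnlg was lower by 2.60. Of 14 simple epithelial markers, 2 were higher and 4 lower, with sums of 130.39 and 125.68 in irradiated arrays against 130.79 and 130.71 in control arrays. Krt18, Epcam and Krt7 were lower by 0.60, 0.61 and 1.19, and Cldn4 was higher by 0.44. Of 15 macrophage markers 2 were higher and 2 lower, with sums of 92.61 and 91.22 in irradiated arrays against 91.42 and 91.53 in control arrays. Among the remaining lists the counts higher and lower were 0 and 0 of 16 lymphocyte, 2 and 0 of 13 trophoblast, 0 and 0 of 12 mast cell, basophil and eosinophil, 2 and 1 of 9 mesothelial, 1 and 0 of 7 fibroblast and 0 and 2 of 5 erythroid markers. No marker was at 0, since RMA gives each probe set a positive log2 intensity here. The part of these cells in the ERBB pathway values was not tested.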

How the data were processed

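The values deposited by the authors were log2 intensities per probe set, computed with RMA per the submitters' processing notes, from 300 ng of RNA labelled with biotin, per the labels' protocols. RMA brings the arrays close to a common distribution, which hides any shift common to most genes, and it compresses differences of dim probe sets. The lowest value was 1.62 on both control arrays and 1.50 on both irradiated arrays, and the reason was not tested. No build or annotation is named in the sources used here. There were 35556 probe sets on 4 arrays and 0 columns of other samples. Depth has no meaning for arrays, and the 2 arrays per group limit the precision.

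Of these, 21789 carried 1 gene symbol, 1621 several and 12146 none listed. Those with 1 symbol were named from the platform's annotation, and symbols were brought up to date by Entrez identifier from RefSeq's gene table of GRCm38.p6 (21698 found). Where a gene had several probe sets (999 genes), the brightest by mean was used. All 19938 genes were fitted in R 4.3.3 with limma 3.58.1 (lmFit, eBayes without trend, two-sided, 2 residual and 3.48 prior degrees of freedom), with Benjamini-Hochberg adjustment over all genes. The members, the 7 pathway lists and the 9 cell type lists were chosen with earlier results of these data known. Named were the 8 genes measured, up to 4 genes of each list by smallest p, and, for any of the 8 past an unadjusted p of 0.05, the genes most like it, which named none. Genes beyond this rule are marked in the text as picked after their values were seen. In 10 simulated sets of 19938 genes with equal spread, a log2 change of 1 was called for 39.8% and one of 2 for 93.7% of the changed genes, with 65 false beside 1335 true calls. Alternatives were filters on dim genes, 3 normalizations, other probe set choices, the replicate block, eBayes with trend or robust, and each array left out.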

Additional observations from a re-analysis of the deposited data

How the results depend on the processing

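With 2 arrays a group, 1 array can turn the sign of most ERBB family differences. Leaving out each array in turn, the log2 difference ran from −0.325 to 0.555 for Ereg, −0.275 to 0.385 for Hbegf, −0.185 to −0.015 for Tgfa, −0.09 to 0.03 for Btc, −0.275 to 0.025 for Egf, 0 to 0.33 for Egfr, −0.355 to 0.205 for Erbb2 and −0.34 to −0.16 for Erbb3. For these genes only the differences are given from such fits, which assume that a lone array varies like the other group. In the settings that keep every array, all 8 stayed short of the unadjusted threshold. Their signs held except for Btc, at 0.0013 under quantile normalization and 0.012 under cyclic loess, where the cause was not tested. Btc and Egf have no value under the median filter.

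Over all genes, 1 gene passed the adjusted threshold, against 6 of all annotated probe sets, 0 of every row of the table, 0 with the replicate block and 0 without any 1 array. The same-numbered samples share only a number: their deviations correlated at 0.0676 across genes. With the block none of the 8 genes passed either threshold. Genes past the unadjusted threshold numbered 2055, from 381 to 5924 without 1 array. With 1.5-fold in addition there were 473, from 315 to 1558 without 1 array, 1060 over every row and 92 at 2-fold.

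The median difference of the other family genes was −0.205 and −0.19 with dim genes left out at the 25th percentile and the median, where fewer genes remain, and 0.01 with median centring. Of these genes 1 passed the unadjusted threshold under each filter and with trend, against 0. The ERK feedback median was 0.30 with the median filter, 0.30 with median centring and 0.3051 with cyclic loess. Without 1 array, list medians ran from −0.15 to −0.0125 (other family genes), 0.0675 to 0.305 (shedding), −0.0275 to 0.0425 (RAS to ERK), 0.01 to 0.115 (PI3K branch), −0.075 to 0 (inhibitors), 0.19 to 0.345 (feedback) and −0.0175 to 0.47 (ERK-induced). Counts past the unadjusted threshold ran from 0 to 2, 1 to 8, 0 to 4, 0 to 6, 0 to 10, 0 to 8 and 4 to 16 in the same order.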
